A study of Mus musculus with 30 samples.

Results

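The comparison described here sets the hippocampus 24 h after lipopolysaccharide (LPS) against the hippocampus 12 h after LPS. Libraries were taken by the tissue, treatment and collection time in their labels, which gave 4 libraries at 24 h (mice A274, A275, A276 and A278) and 4 at 12 h (mice A258, A259, A260 and A261), 8 of the 30 libraries of the series. All 48820 genes of the count table belong to the comparison, and 17289 had enough counts to be tested.

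The mice were adult male wild-type C57BL/6J animals, an inbred laboratory strain, aged 8 to 12 weeks and weighing about 30 g, used as a model of Gulf War Illness. The LPS 24 h and LPS 12 h mice shared one history. They drank corticosterone (CORT), the main stress glucocorticoid of rodents, at 200 mg/L in 0.6% ethanol for 7 days. On day 8 they were injected with diisopropyl fluorophosphate (DFP), an organophosphate inhibitor of acetylcholinesterase, at 4 mg/kg. Courses of CORT lasting 7 days followed in alternate weeks until 5 weeks had passed, and LPS at 0.5 mg/kg was then injected under the skin. Mice given saline in place of LPS after that history were collected at 6 h alone (3 hippocampal libraries), and 4 hippocampal libraries came from mice 6 h after LPS. All of the mice had received CORT and DFP, so the values describe the time after LPS in mice with that history. Each library came from 1 mouse, and no mouse gave a library to both times.

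LPS, an outer membrane component of Gram-negative bacteria, is sensed by Toll-like receptor 4 and sets off cytokine production in blood and at the borders of the brain. In the brain, microglia (the resident macrophages), astrocytes and vessel cells answer with cytokines and with genes switched on by NF-kB and by interferons, and microglia lower a set of surface receptors that mark their resting state. The response to a low dose normally passes through an early cytokine phase and a later phase of resolution, in which microglia may divide and regain those receptors. A bulk library cannot tell fewer cells of a type from less RNA per cell, and this holds for each difference below.

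Total counts per library ran from 20458591 to 24079020 at 24 h and from 19058723 to 25730334 at 12 h. Mitochondrial genes took 7.52% to 8.32% of counts at 24 h and 7.65% to 8.14% at 12 h. Levels are given in CPM, a gene's count relative to the library's total count scaled with TMM factors, and each fold change is a log2 ratio of LPS 24 h over LPS 12 h with its standard error (SE), from edgeR's quasi-likelihood test with Benjamini-Hochberg adjustment over the 17289 genes. A gene is said to have risen or fallen where its adjusted p was under 0.05. Markers of hippocampal neurons were summed in each hippocampal library. Those of dentate gyrus granule cells (5 genes) gave 365 to 389 CPM at 24 h and 305 to 411 CPM at 12 h. Those of CA1 pyramidal cells (5 genes) gave 1116 to 1296 CPM at 24 h and 955 to 1164 CPM at 12 h. The sums were not set against the frontal cortex, so they are no check of the tissue label. The 12 h library of mouse A261 stood apart in choroid plexus genes. Its 10 choroid plexus markers summed to 2429.6 CPM, against 56.4 to 291 CPM in the other 3 libraries at 12 h and 48.7 to 79.5 CPM in the 4 at 24 h. None of these 10 markers passed the test (median log2 fold change -2.68), and none was at 0 in every library of either time. DESeq2 called 2 of them lower, and with no filter on low counts all 10 were called lower. Without A261, 9 were tested and their median was -0.39. The part of these markers in other results was not tested.

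At 24 h, 153 genes were higher (0.885% of the genes tested) and 217 were lower (1.26%) than at 12 h, and 2587 had an unadjusted p under 0.05. The median log2 fold change over all genes tested was -0.0021. The shares of 0.885% higher and 1.26% lower stand beside every count of called list members below. Changes were mostly small. At least 2-fold differences were called for 24 higher genes (0.139%) and 37 lower genes (0.214%). The 4 libraries of each time did not overlap for 145 of the 153 higher and 202 of the 217 lower genes, where such separation was seen upward in 3.58% and downward in 4.22% of all genes tested. In a principal component analysis of the 15 hippocampal libraries, the second component (14.4% of the variance) held the 24 h libraries between -22.1 and -16.5 and the 12 h libraries between 0.92 and 18.6. With 1 library left out the counts ran from 81 to 159 higher and from 111 to 206 lower. They were 85 and 111 without 12 h A261 and 81 and 113 without 24 h A278. Of the 370 calls, 154 held in each of the 8 fits with 1 library left out. When the cortical libraries of the same study were fitted together with the hippocampal ones, 17 higher and 15 lower genes were called, and with the mouse as a random effect none was called (smallest adjusted p 0.0509, and 1939 genes at an unadjusted p under 0.05).

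**Figure D1:**
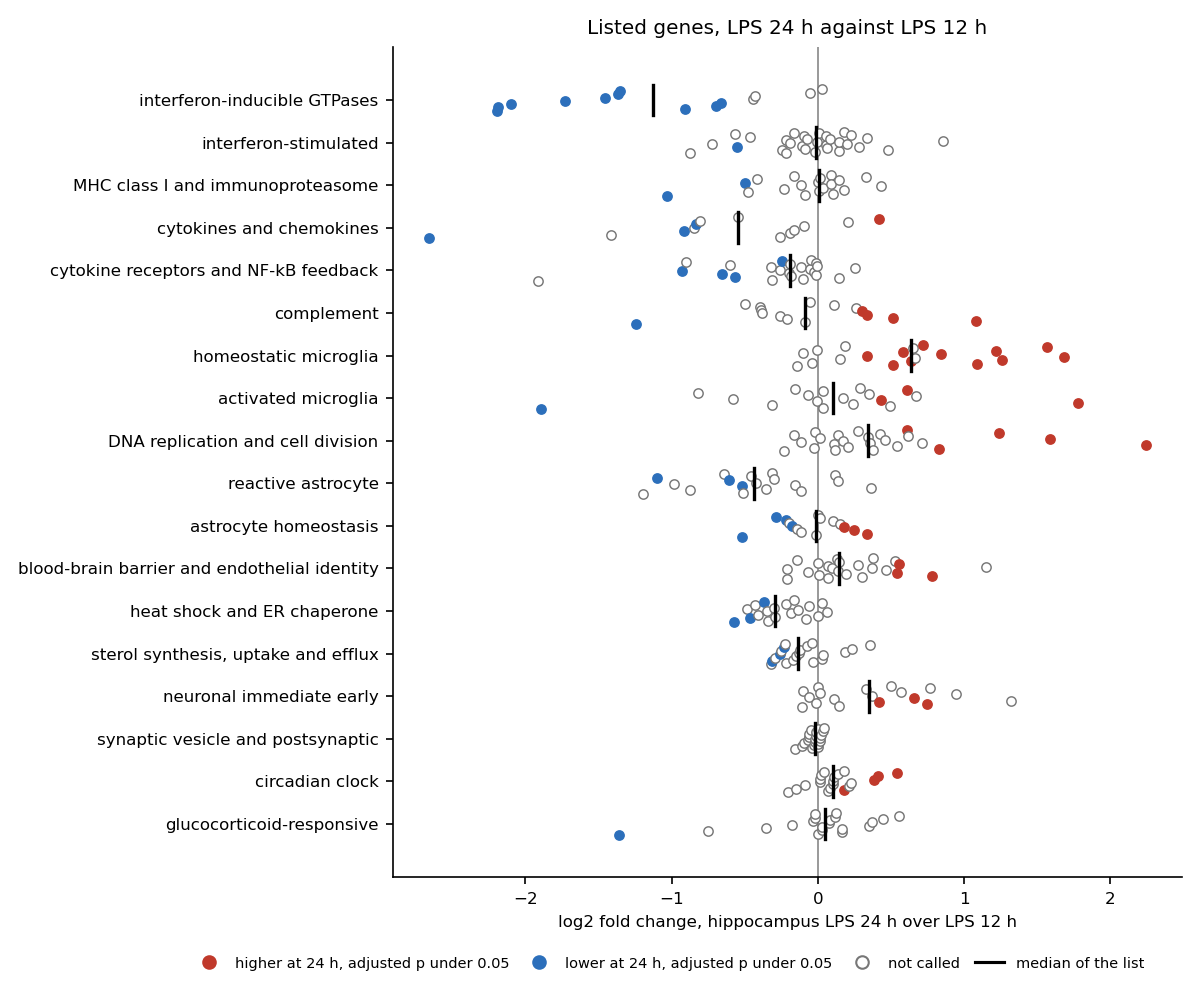
Log2 fold change of LPS 24 h over LPS 12 h in the hippocampus (x axis) for the tested members of 18 gene lists (y axis). Each point is a gene, filled points passed an adjusted p of 0.05, and bars mark list medians. The GTPases lie to the left with a median of -1.13 and the homeostatic microglial genes to the right with a median of 0.63, while synaptic genes cluster at 0.

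Interferon-inducible GTPases, proteins that coat and break open the vacuoles of intracellular pathogens, had the lowest median fold change of the 30 gene lists. Of the 14 tested members, 10 fell, none rose, and the median log2 fold change was -1.13, against -0.0021 over all genes tested and a share called lower of 1.26%. The members belong to the guanylate-binding protein (Gbp) family and the immunity-related GTPases, and their transcription is driven by STAT and IRF factors downstream of interferons. Upstream windows of 4 of the 10 that fell are shown because 6 of the 7 members with a window in the RefSeq table held the interferon-stimulated response element (ISRE), searched on both strands as GAAA, any 2 bases and GAAA, and printed in capitals. Each window runs from 250 bases before to 50 bases after the transcription start on GRCm38.p6, 5′ to 3′ along the gene.
Tgtp2 (chr11:49064163-49064462, - strand): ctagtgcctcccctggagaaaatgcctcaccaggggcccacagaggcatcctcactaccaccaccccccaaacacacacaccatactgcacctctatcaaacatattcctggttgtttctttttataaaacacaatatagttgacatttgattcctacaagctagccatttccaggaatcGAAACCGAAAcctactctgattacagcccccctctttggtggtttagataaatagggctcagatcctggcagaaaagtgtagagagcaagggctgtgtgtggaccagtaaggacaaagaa
Irgm2 (chr11:58214727-58215026, + strand): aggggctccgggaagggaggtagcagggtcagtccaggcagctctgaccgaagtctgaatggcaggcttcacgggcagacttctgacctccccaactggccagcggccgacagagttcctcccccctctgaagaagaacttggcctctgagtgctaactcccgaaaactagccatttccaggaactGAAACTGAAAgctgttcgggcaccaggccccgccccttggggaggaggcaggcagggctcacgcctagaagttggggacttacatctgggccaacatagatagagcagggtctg
Gbp2 (chr3:142620413-142620712, + strand): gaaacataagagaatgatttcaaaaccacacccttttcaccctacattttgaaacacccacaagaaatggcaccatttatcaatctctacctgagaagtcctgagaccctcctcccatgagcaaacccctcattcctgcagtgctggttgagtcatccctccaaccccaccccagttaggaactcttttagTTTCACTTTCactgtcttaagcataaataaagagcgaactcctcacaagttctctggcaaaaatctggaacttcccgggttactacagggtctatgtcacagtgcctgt
Gbp5 (chr3:142496684-142496983, + strand): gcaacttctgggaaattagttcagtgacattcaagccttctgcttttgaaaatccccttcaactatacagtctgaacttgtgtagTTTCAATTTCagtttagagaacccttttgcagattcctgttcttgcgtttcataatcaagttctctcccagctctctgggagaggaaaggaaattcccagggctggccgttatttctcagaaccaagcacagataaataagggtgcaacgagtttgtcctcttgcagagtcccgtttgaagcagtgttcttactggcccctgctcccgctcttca
Counted from the start site, the element began at -70 in Tgtp2, -64 in Irgm2, -59 in Gbp2 and -165 in Gbp5, reading along the opposite strand in both Gbp windows. The share of tested genes with such a window that held the element was 3.70% (447 of 12065), and it was 10.6% for the genes that fell (17 of 160) and 3.39% for those that rose (4 of 118). In the list of other interferon-stimulated genes, which had a median log2 fold change of -0.01, it was 55.0% (11 of 20). These are matches of letters in a window, and the 17 among the genes that fell include the 6 GTPase genes.

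Gbp4 (GRCm38, chr5:105115767-105139586, - strand) had 2.18, 1.77, 2.43 and 3.14 CPM in the LPS 24 h libraries, against 4.83, 15.1, 11.3 and 12.3 CPM in the LPS 12 h libraries (log2 fold change -2.20 ± 0.28 (SE), adjusted p = 0.000849). Tgtp2, a T cell-specific GTPase (chr11:49057194-49064206, - strand), had 3.44, 2.6, 1.44 and 4.41 CPM at 24 h, against 10.4, 15, 9.70 and 18.5 CPM at 12 h (log2 fold change -2.19 ± 0.30 (SE), adjusted p = 0.00219). Every 24 h library lay below every 12 h library for both genes, and the lowest 12 h library of Gbp4 was A258. Tgtp1, a near-identical neighbour of Tgtp2 on chromosome 11, gave a log2 fold change of -2.10 ± 0.28 (adjusted p = 0.00137), and reads of this pair may have been divided by the counting. Gbp2 had 5.77, 4.04, 7.47 and 8.01 CPM at 24 h, against 14.8, 20.4, 12.7 and 17.9 CPM at 12 h (log2 fold change -1.37 ± 0.20 (SE), adjusted p = 0.00219). Gbp5, which promotes inflammasome assembly, had 3.78, 4.23, 3.96 and 5.32 CPM at 24 h, against 7.89, 13.7, 9.74 and 12.7 CPM at 12 h (log2 fold change -1.35 ± 0.16 (SE), adjusted p = 7.55e-05). Again no 24 h library reached the 12 h range. Iigp1 (-1.72 ± 0.22, adjusted p = 0.000384), Ifi47 (-1.46 ± 0.22, adjusted p = 0.000576), Gbp9 (-0.90 ± 0.18, adjusted p = 0.00893) and Irgm2 (-0.70 ± 0.14, adjusted p = 0.00745) fell with separated groups as well. Igtp had a log2 fold change of -0.66 ± 0.17 with overlapping groups (adjusted p = 0.0474), and its call was lost without 24 h A274, A275 or A276 or 12 h A258, A259 or A261. Its fold change lay between -0.89 and -0.54 over the 8 fits that each left out 1 library, and the ranges given beside other lost calls below are over the same 8 fits. The other 4 tested members were not called: Irgm1 at -0.44 ± 0.12, Gbp7 at -0.43 ± 0.13, Gbp6 at -0.05 ± 0.22 and Gbp3 at 0.03 ± 0.19 (adjusted p = 0.052, 0.0964, 0.942 and 0.967). Gbp6 and Gbp3 changed sign in some of the fits with 1 library left out. Between 9 and 12 members were called with 1 library left out. With cortical libraries in the same fit none of the 14 was called, and Gbp4 had an adjusted p of 0.128. Gbp genes share long stretches of sequence, and their separate values are uncertain to that extent.

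Over the whole course, each tested GTPase gene but Gbp3 had its highest mean at 12 h. Gbp4 averaged 0.256 ± 0.123 CPM after saline, 3.04 ± 0.136 CPM at 6 h, 10.9 ± 4.36 CPM at 12 h and 2.38 ± 0.576 CPM at 24 h (SD, n = 3 for saline and 4 for each LPS time). Gbp2 averaged 0.965 ± 0.422 CPM after saline, 9.39 ± 0.817 CPM at 6 h, 16.4 ± 3.37 CPM at 12 h and 6.32 ± 1.79 CPM at 24 h. Irgm2 averaged 2.06 ± 0.422 CPM after saline, 5.34 ± 0.559 CPM at 6 h, 8.33 ± 1.33 CPM at 12 h and 5.14 ± 0.960 CPM at 24 h. In these 3 genes the 24 h mean was above the saline mean, which comes from mice collected at 6 h.

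Of 30 other interferon-stimulated genes, each of them tested, 1 fell, against 1.26% of all genes tested, and none rose. In the list 14 had a positive and 16 a negative fold change. The median lay between -0.17 without 24 h A278 and 0.07 without 12 h A259. Irf1, a transcription factor induced by interferon gamma, was the called member. It had 7.56, 6.18, 6.56 and 7.01 CPM at 24 h, against 9.14, 9.09, 8.96 and 12.7 CPM at 12 h (log2 fold change -0.55 ± 0.11 (SE), adjusted p = 0.00901), with no overlap. Its call was lost without 12 h A261, its highest library, and 2 members of the list fell without 12 h A260. Irf7, a regulator of type I interferon genes chosen after its values were seen, had 10.3, 8.93, 10.2 and 15.1 CPM at 24 h, against 9.35, 12.2, 8.10 and 8.57 CPM at 12 h (log2 fold change 0.23 ± 0.17 (SE), adjusted p = 0.582), with overlapping groups. Oasl2, chosen likewise, had 9.06, 7.90, 8.29 and 14.8 CPM at 24 h, against 10.8, 9.73, 6.73 and 6.04 CPM at 12 h (log2 fold change 0.28 ± 0.22 (SE), adjusted p = 0.598). In both genes 24 h A278 was the highest of the 8 libraries. The uncalled members nearest to the threshold were Lgals3bp, a secreted galectin-binding protein (log2 fold change 0.48 ± 0.12, adjusted p = 0.0594), Parp14, an ADP-ribosyltransferase (-0.72 ± 0.20, adjusted p = 0.0755), and Oas2, an oligoadenylate synthetase (-0.88 ± 0.31, adjusted p = 0.153). Irf7 averaged 0.806 ± 0.0527 CPM after saline, 8.44 ± 1.82 CPM at 6 h, 9.56 ± 1.84 CPM at 12 h and 11.1 ± 2.72 CPM at 24 h (SD, n = 3 for saline and 4 for each LPS time).

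Among 19 genes of MHC class I presentation and the immunoproteasome, 2 fell, against 1.26% of all genes tested. The median of the list was 0.01, or between -0.10 and 0.06 with 1 library left out. Nlrc5, the transactivator of MHC class I genes, had 1.5, 1.116, 0.825 and 1.5 CPM at 24 h, against 2.18, 3.08, 2.15 and 2.65 CPM at 12 h (log2 fold change -1.03 ± 0.22 (SE), adjusted p = 0.0126). Tap2, a subunit of the peptide transporter of the endoplasmic reticulum, fell less (log2 fold change -0.50 ± 0.12 (SE), adjusted p = 0.0233). Both were lower in every 24 h library than in any 12 h library. The call of Tap2 was lost without 24 h A274 or A275 or 12 h A258, A259 or A261 (values between -0.59 and -0.40).

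**Figure D2:**
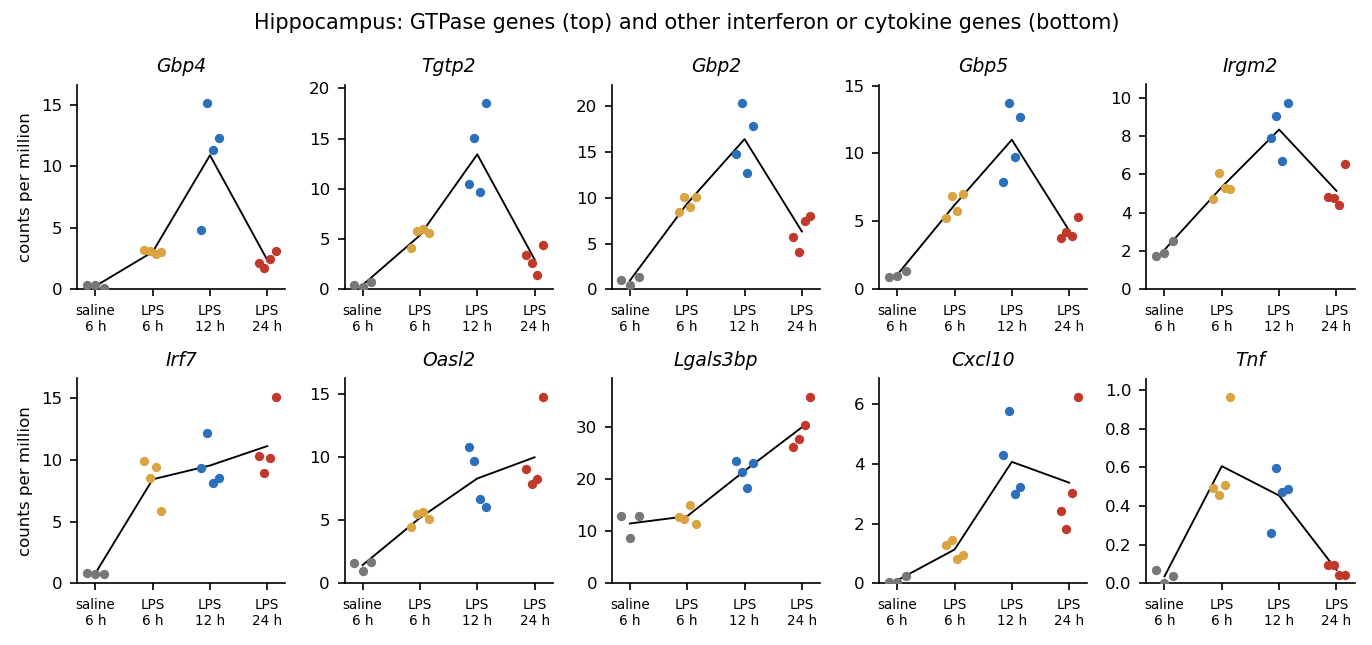
CPM (y axes, starting at 0) in each hippocampal library after saline (6 h) and 6, 12 and 24 h after LPS (x axes), with lines joining group means. The GTPase genes of the upper row are highest at 12 h and lower at 24 h, Irf7, Oasl2 and Lgals3bp show no such drop, and Tnf is at 0.0413 to 0.0969 CPM at 24 h.

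Cytokine and chemokine genes were mostly low and moved unevenly. Of 20 listed, 13 were tested, 3 fell and 1 rose, against 1.26% and 0.885% of all genes tested. The list had a median log2 fold change of -0.55. The median was -0.26 without 24 h A275. Tnf, the early cytokine of the LPS response, had 0.0969, 0.0930, 0.0413 and 0.0455 CPM at 24 h, against 0.260, 0.596, 0.470 and 0.490 CPM at 12 h (log2 fold change -2.66 ± 0.53 (SE), adjusted p = 0.00673), and the groups did not overlap. These levels rest on few reads. Cxcl16, a membrane-bound chemokine, had 0.921, 1.21, 1.36 and 1.37 CPM at 24 h, against 1.87, 2.88, 2.15 and 2.33 CPM at 12 h (log2 fold change -0.92 ± 0.21 (SE), adjusted p = 0.0192). Ccl12, a monocyte chemoattractant, had 1.84, 2.32, 3.67 and 2.78 CPM at 24 h, against 5.30, 5.01, 5.28 and 3.51 CPM at 12 h (log2 fold change -0.83 ± 0.20 (SE), adjusted p = 0.0253), and 24 h A276 lay above 12 h A261. Il33, an alarmin of oligodendrocytes and astrocytes, was the gene that rose (log2 fold change 0.42 ± 0.09 (SE), adjusted p = 0.0153), with 41.2, 31.4, 41.6 and 37.6 CPM at 24 h, against 30.7, 27.6, 28.8 and 26.6 CPM at 12 h. The call was lost for Cxcl16 without 24 h A274 or 12 h A259 or A261 (log2 fold change between -0.996 and -0.80). It was lost for Ccl12 without 24 h A274, A275 or A278 or 12 h A258, A259 or A260 (between -1.04 and -0.70), and for Il33 without 24 h A274 or A276 or 12 h A261 (between 0.37 and 0.50). Il1b did not pass (log2 fold change -1.41 ± 0.44 (SE), adjusted p = 0.115) although its groups did not overlap, with 0.194, 0.697, 0.495 and 0.501 CPM at 24 h, against 0.935, 1.04, 1.6 and 1.43 CPM at 12 h. Ccl2 (-0.85 ± 0.52, adjusted p = 0.474) and Cxcl10 (-0.26 ± 0.34, adjusted p = 0.789) did not pass either. Ccl2 had 0.630, 0.232, 1.9 and 0.455 CPM at 24 h, against 1.51, 1.54, 1.06 and 1.88 CPM at 12 h, so that 24 h A276 was above all 4 libraries at 12 h. Without A276 the log2 fold change of Ccl2 was -1.76 and passed (adjusted p = 0.0467). Of the list, 1 member fell without 12 h A259 or 24 h A274, and 4 fell without 24 h A276.

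Of 23 cytokine receptor and NF-kB feedback genes, 4 fell, against 1.26% of all genes tested, and none rose. In this list 21 had a negative fold change (median -0.19). Bcl3, a nuclear modulator of NF-kB, had 1.26, 1.49, 1.36 and 1.64 CPM at 24 h, against 2.6, 2.53, 2.23 and 3.59 CPM at 12 h (log2 fold change -0.93 ± 0.18 (SE), adjusted p = 0.0061). Osmr, the oncostatin M receptor of astrocytes and vessels, had 6.83, 8.28, 11.9 and 7.01 CPM at 24 h, against 12.6, 15.1, 13 and 13.1 CPM at 12 h (log2 fold change -0.65 ± 0.13 (SE), adjusted p = 0.0102). Nfkb2 (log2 fold change -0.56 ± 0.13 (SE), adjusted p = 0.0191) and Tnip1, an inhibitor of NF-kB signalling (log2 fold change -0.24 ± 0.06 (SE), adjusted p = 0.0377), fell by less. All 4 had separated groups. The call of Nfkb2 was lost without 24 h A274 or A276 or 12 h A261 and that of Tnip1 without 24 h A274, A275 or A276 or 12 h A258, A259, A260 or A261, with log2 fold changes between -0.66 and -0.48 and between -0.28 and -0.21. The list had 7 called members without 24 h A276, 2 without 12 h A261 or 24 h A274, and 8 by limma-voom.

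Homeostatic microglial genes, which mark surveying microglia, had the most called rises and the highest median fold change of the 30 gene lists. Of 19 tested, 11 rose and none fell, and their median log2 fold change was 0.63, against a share of 0.885% higher among all genes. Every 24 h library lay above every 12 h library for 14 of the 19, against 3.58% of all genes tested. P2ry12, the receptor through which microglial processes follow ADP, had 28.3, 29.5, 25.4 and 29.4 CPM in the LPS 24 h libraries, against 8.83, 7.50, 11.1 and 10.3 CPM in the LPS 12 h libraries (log2 fold change 1.56 ± 0.25 (SE), adjusted p = 0.00673). Slc2a5, a fructose transporter, had 4.31, 3.81, 2.89 and 4.41 CPM at 24 h, against 1.61, 1.79, 1.53 and 1.51 CPM at 12 h (log2 fold change 1.26 ± 0.20 (SE), adjusted p = 0.000809). Csf1r, the growth factor receptor on which microglial survival depends, had 105, 103, 100.1 and 101 CPM at 24 h, against 71.9, 70.3, 72.8 and 70.7 CPM at 12 h (log2 fold change 0.52 ± 0.06 (SE), adjusted p = 2.46e-05). The 4 libraries of Csf1r at each time lay close together, and the 24 h values were all above the 12 h values. Siglech, a sialic acid-binding lectin, had 16.1, 15.5, 13.4 and 16.5 CPM at 24 h, against 6.23, 4.32, 8.26 and 7.27 CPM at 12 h (log2 fold change 1.22 ± 0.19 (SE), adjusted p = 0.00282). Selplg, a selectin ligand, had 29.7, 29.3, 22.5 and 31.3 CPM at 24 h, against 15, 10.1, 14.2 and 13.6 CPM at 12 h (log2 fold change 1.09 ± 0.14 (SE), adjusted p = 0.000841). Gpr34, a lysophosphatidylserine receptor with the largest fold change of the list, had 10.03, 9.11, 6.93 and 7.78 CPM at 24 h, against 3.38, 2.04, 2.82 and 2.33 CPM at 12 h (log2 fold change 1.68 ± 0.36 (SE), adjusted p = 0.0308). Its call was lost without 24 h A274, A275 or A278 or 12 h A258, A259, A260 or A261 (values between 1.58 and 1.81). Tmem119 (0.65 ± 0.16, adjusted p = 0.0592) and Cx3cr1, the fractalkine receptor (0.18 ± 0.10, adjusted p = 0.409), were chosen after their values were seen. Neither passed, though every 24 h library was above every 12 h library in both. Olfml3 (log2 fold change 0.84 ± 0.13 (SE), adjusted p = 0.00198), Trem2, a lipid-sensing receptor (log2 fold change 0.72 ± 0.18 (SE), adjusted p = 0.0368), P2ry13 (log2 fold change 0.58 ± 0.15 (SE), adjusted p = 0.0412) and Sall1, a microglial transcription factor (log2 fold change 0.34 ± 0.07 (SE), adjusted p = 0.0127), also rose. The list had 7 to 10 called members with 1 library left out, and 7 without 12 h A261 or without 24 h A278. Among the calls lost was that of Trem2 without 24 h A274, A275, A276 or A278 or 12 h A259, A260 or A261 (values between 0.61 and 0.79). Others were P2ry13 without 24 h A275, A276 or A278 or 12 h A258, A259 or A261 (values between 0.51 and 0.67) and Sall1 without 24 h A278 or 12 h A261 (values between 0.29 and 0.41). With cortical libraries in the same fit 2 members were called.

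Over the course, P2ry12 averaged 11.5 ± 5.2 CPM after saline, 7.46 ± 2.09 CPM at 6 h, 9.43 ± 1.59 CPM at 12 h and 28.1 ± 1.89 CPM at 24 h (SD, n = 3 for saline and 4 for each LPS time). Slc2a5 averaged 1.83 ± 0.287 CPM after saline, 1.1 ± 0.391 CPM at 6 h, 1.61 ± 0.127 CPM at 12 h and 3.86 ± 0.698 CPM at 24 h. Csf1r averaged 69.3 ± 6.63 CPM after saline, 60.5 ± 5.99 CPM at 6 h, 71.4 ± 1.122 CPM at 12 h and 102 ± 2.06 CPM at 24 h. For these 3 genes the 24 h mean was the highest of the course, and the 6 h mean the lowest. Over the whole list the median log2 fold change against saline was -0.22 at 6 h, 0.02 at 12 h and 0.69 at 24 h. Not every member followed this course: Cx3cr1 had 21.1 to 33.7 CPM after saline and 29.3 to 35.8 CPM at 6 h.

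Other genes of microglia and macrophages rose and fell. Cd180, a Toll-like receptor homologue that dampens LPS signalling, had 2.62, 2.84, 2.19 and 3.32 CPM at 24 h, against 0.831, 0.695, 1.06 and 0.571 CPM at 12 h (log2 fold change 1.78 ± 0.23 (SE), adjusted p = 8.16e-05). Ly86, the secreted partner that Cd180 needs at the cell surface, had 17.1, 13, 10.3 and 18.7 CPM at 24 h, against 4.57, 3.67, 4.85 and 5.27 CPM at 12 h (log2 fold change 1.67 ± 0.20 (SE), adjusted p = 0.000317). Both were higher in all 24 h libraries. Itgam, the alpha chain of complement receptor 3, had 9.16, 7.76, 8.70 and 8.74 CPM at 24 h, against 3.64, 4.17, 4.74 and 3.63 CPM at 12 h (log2 fold change 1.08 ± 0.17 (SE), adjusted p = 0.00103). Pld4, a lysosomal exonuclease of phagocytes, rose (log2 fold change 0.93 ± 0.11 (SE), adjusted p = 2.46e-05), as did Dock2, a Rac activator of blood and microglial cells (log2 fold change 0.92 ± 0.13 (SE), adjusted p = 0.000384), and AU020206 (log2 fold change 1.25 ± 0.21 (SE), adjusted p = 0.00137). Msr1, a scavenger receptor, moved the other way. It had 0.678, 0.837, 1.20 and 0.865 CPM at 24 h, against 3.17, 5.06, 2.66 and 2.65 CPM at 12 h (log2 fold change -1.89 ± 0.34 (SE), adjusted p = 0.00606), with no overlap. Gpr84, a receptor for medium-chain fatty acids induced by LPS in macrophages, had 1.5, 2.23, 3.18 and 2.23 CPM at 24 h, against 5.61, 6.41, 5.52 and 6.74 CPM at 12 h (log2 fold change -1.39 ± 0.27 (SE), adjusted p = 0.0134). Slc15a3, a lysosomal peptide transporter, had 1.55, 1.81, 2.81 and 1.82 CPM at 24 h, against 4.10, 5.76, 5.75 and 5.02 CPM at 12 h (log2 fold change -1.36 ± 0.17 (SE), adjusted p = 7.55e-05). The call of Gpr84 was lost without 24 h A278 or 12 h A261, with values between -1.602 and -1.24. The 18 tested genes of activated microglia had a median of 0.10, or 0.02 without 24 h A276. Of them 3 rose and 1 fell, against 0.885% and 1.26% of all genes tested. Beside Cd180 these were Ctss, a lysosomal protease (log2 fold change 0.61 ± 0.13 (SE), adjusted p = 0.0314), Fcgr3, an Fc receptor (log2 fold change 0.43 ± 0.07 (SE), adjusted p = 0.0015), and the falling Msr1. Groups were separate for both, and the call of Ctss was lost without 24 h A274, A276 or A278 or 12 h A258, A259, A260 or A261 (values between 0.58 and 0.68).

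Against 0.885% and 1.26% of all genes tested, 4 of the 15 tested complement genes rose and 1 fell. Their median log2 fold change was -0.09, but it was 0.07 without 12 h A261, and between -0.18 (without 12 h A259) and -0.05 (without 24 h A275) when each of the other 7 libraries was left out. The 3 chains of C1q, the recognition protein of the classical pathway that microglia make, rose together. C1qc had 57.5, 54.1, 55.7 and 59.9 CPM at 24 h, against 42.2, 37.6, 38.7 and 40.7 CPM at 12 h (log2 fold change 0.51 ± 0.07 (SE), adjusted p = 8.16e-05). C1qa (log2 fold change 0.30 ± 0.06 (SE), adjusted p = 0.00464) and C1qb (log2 fold change 0.34 ± 0.07 (SE), adjusted p = 0.00605) rose by less, also with separated groups. The 3 genes lie side by side on chromosome 4. Itgam was the other gene that rose. C5ar1, the receptor for the C5a fragment on microglia and granulocytes, fell: it had 0.824, 1.35, 2.15 and 1.14 CPM at 24 h, against 2.96, 3.82, 3.37 and 2.98 CPM at 12 h (log2 fold change -1.24 ± 0.23 (SE), adjusted p = 0.00515). Chil3, a chitinase-like gene of granulocytes and alternatively activated macrophages, was the sole called member of 10 tested neutrophil and monocyte genes, with 0.630, 0.418, 0.701 and 0.637 CPM at 24 h, against 1.25, 1.84, 1.80 and 1.47 CPM at 12 h (log2 fold change -1.40 ± 0.23 (SE), adjusted p = 0.00133). The list had a median log2 fold change of -0.23, with 7 of the 10 below 0. Without 24 h A276, 3 of 9 tested members fell and the median was -1.03, and by limma-voom 3 of 10 fell. The median was -0.10 without 24 h A275 and -0.12 without 24 h A274. None of the 6 tested genes of border macrophages and MHC class II passed. Of 19 NADPH oxidase and antioxidant genes, Cybb, the catalytic subunit of the phagocyte oxidase, alone was called and was lower (log2 fold change -0.84 ± 0.22 (SE), adjusted p = 0.0481). Its call was lost without 24 h A274, A275, A276 or A278 or 12 h A259, A260 or A261 (values between -0.96 and -0.64). The T and NK cell markers Cd3d, Cd3e, Cd8a, Nkg7, Ms4a4b and Trbc2 were too low to be tested, and the 7 listed markers summed to 0.63 to 1.36 CPM at 24 h and 0.55 to 1.13 CPM at 12 h, with 2 of them at 0 in all 24 h libraries and 3 in all 12 h libraries.

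Of 32 listed genes of DNA replication and cell division 25 were tested, of which 5 rose and none fell. The share called higher was 0.885% of all genes tested. The median log2 fold change of the list was 0.34. Top2a, the topoisomerase that untangles replicated chromosomes, had 3.63, 1.44, 0.660 and 1.91 CPM in the LPS 24 h libraries, against 0.623, 0.397, 0.313 and 0.286 CPM in the LPS 12 h libraries (log2 fold change 2.24 ± 0.44 (SE), adjusted p = 0.0094). Mki67, which encodes the proliferation marker Ki-67, had 3.44, 2.0, 1.07 and 2.37 CPM at 24 h, against 0.831, 0.844, 0.900 and 0.367 CPM at 12 h (log2 fold change 1.59 ± 0.31 (SE), adjusted p = 0.00608). The 24 h libraries were spread, with A274 highest and A276 lowest in both, but none overlapped with 12 h. Uhrf1, which carries DNA methylation through replication, had 2.47, 1.77, 2.02 and 2.78 CPM at 24 h, against 1.09, 0.894, 0.861 and 0.980 CPM at 12 h (log2 fold change 1.24 ± 0.24 (SE), adjusted p = 0.00505). Mcm3 (log2 fold change 0.83 ± 0.15 (SE), adjusted p = 0.00397) and Mcm5 (log2 fold change 0.61 ± 0.11 (SE), adjusted p = 0.00282), subunits of the replicative helicase, also rose with separated groups. Mcm5 had 9.98, 8.97, 7.55 and 10.3 CPM at 24 h, against 6.34, 6.80, 5.56 and 5.43 CPM at 12 h. Between 5 and 6 members were called when 1 library was left out, and 3 with cortical libraries in the same fit. The other 20 tested genes were not called. Mki67 averaged 0.723 ± 0.0529 CPM after saline, 0.603 ± 0.172 CPM at 6 h, 0.736 ± 0.247 CPM at 12 h and 2.22 ± 0.979 CPM at 24 h (SD, n = 3 for saline and 4 for each LPS time). Top2a averaged 0.237 ± 0.0369 CPM after saline, 0.249 ± 0.149 CPM at 6 h, 0.405 ± 0.153 CPM at 12 h and 1.91 ± 1.26 CPM at 24 h.

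**Figure D3:**
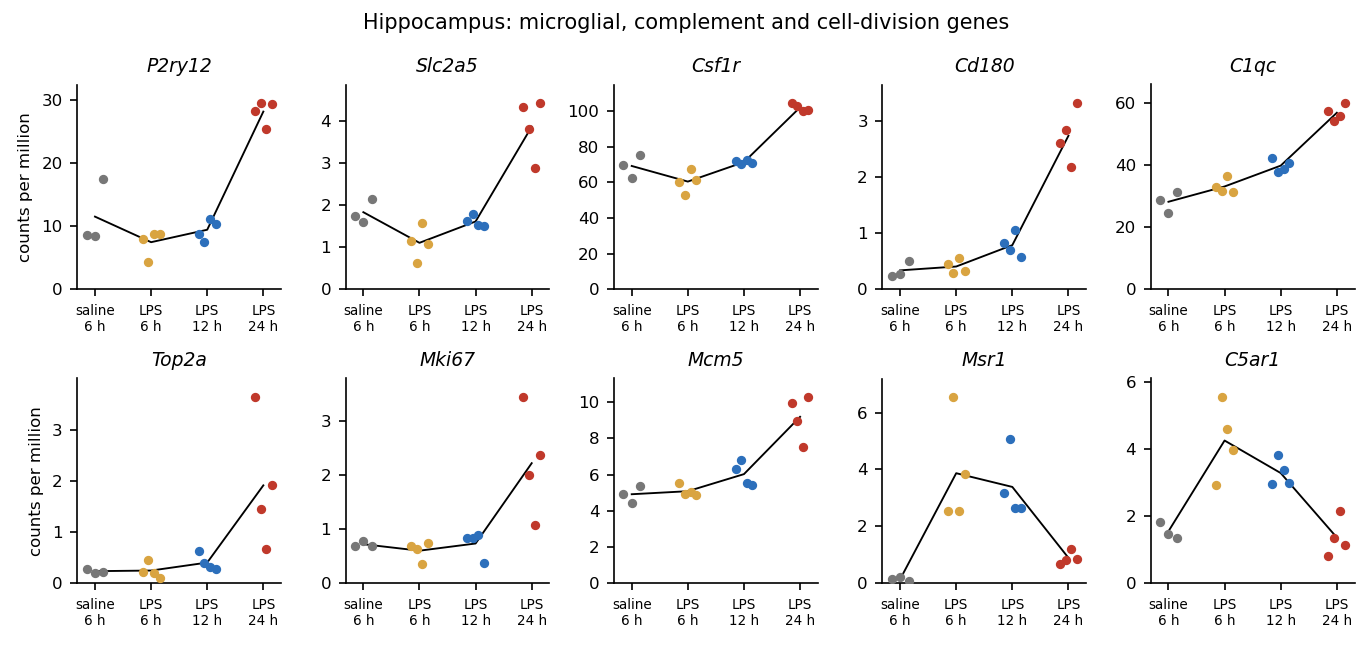
CPM (y axes, starting at 0) in each hippocampal library after saline (6 h) and 6, 12 and 24 h after LPS (x axes), with lines joining group means. P2ry12, Slc2a5, Csf1r, Cd180, C1qc, Top2a, Mki67 and Mcm5 are highest at 24 h, with every 24 h library above every 12 h library, and Msr1 and C5ar1 are lower at 24 h than at 12 h.

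Astrocyte genes moved in both directions. Of 18 reactive astrocyte genes 3 fell, against 1.26% of all genes tested, and none rose. In this list 15 had a negative fold change (median -0.44). Lcn2, a secreted iron-siderophore binder induced by LPS, had 2.81, 3.49, 3.18 and 4.23 CPM at 24 h, against 7.89, 6.5, 5.48 and 9.51 CPM at 12 h (log2 fold change -1.098 ± 0.17 (SE), adjusted p = 0.000809), with no overlap. Cp, the ferroxidase ceruloplasmin (log2 fold change -0.61 ± 0.13 (SE), adjusted p = 0.0221), and Ggta1, a galactosyltransferase (log2 fold change -0.52 ± 0.13 (SE), adjusted p = 0.0308), fell with overlapping groups. The call of Cp was lost without 24 h A274, A275 or A278 or 12 h A258 or A261 (values between -0.73 and -0.51) and that of Ggta1 without 24 h A274, A275 or A278 or 12 h A259 or A261 (values between -0.65 and -0.43). The list had 5 called members without 24 h A276 and 1 without 12 h A261, 24 h A274 or 24 h A278. Gfap, the intermediate filament of reactive astrocytes, had 431, 469, 608 and 471 CPM at 24 h, against 519, 601, 506 and 515 CPM at 12 h and did not pass (log2 fold change -0.11 ± 0.13 (SE), adjusted p = 0.759). Lcn2 averaged 0.227 ± 0.0790 CPM after saline, 11.6 ± 1.61 CPM at 6 h, 7.35 ± 1.7496 CPM at 12 h and 3.43 ± 0.604 CPM at 24 h (SD, n = 3 for saline and 4 for each LPS time).

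Of 15 genes of astrocyte homeostasis (median -0.01) 4 fell and 3 rose, against 1.26% and 0.885% of all genes tested. The median lay between -0.09 without 24 h A276 and 0.00 without 24 h A278. Aldh1l1, a folate enzyme, had 29.7, 32.4, 34.4 and 32.0 CPM at 24 h, against 48.3, 48.4, 41.6 and 46.5 CPM at 12 h (log2 fold change -0.52 ± 0.06 (SE), adjusted p = 4.04e-05). Ndrg2 had 514, 494, 509.6 and 513 CPM at 24 h, against 626, 612, 611 and 623 CPM at 12 h (log2 fold change -0.28 ± 0.04 (SE), adjusted p = 7.58e-05). The 4 values of Ndrg2 at each time lay close together and far from those of the other time. Slc4a4, a bicarbonate cotransporter (log2 fold change -0.22 ± 0.05 (SE), adjusted p = 0.0245), and Atp1b2, a sodium pump subunit (log2 fold change -0.18 ± 0.04 (SE), adjusted p = 0.0345), fell slightly. Kcnj10, the inward-rectifier potassium channel that clears potassium, rose (log2 fold change 0.25 ± 0.05 (SE), adjusted p = 0.0108), with 191, 189, 172 and 175 CPM at 24 h, against 147, 165, 158 and 143 CPM at 12 h. Fgfr3 (log2 fold change 0.33 ± 0.08 (SE), adjusted p = 0.0407) and the gap junction gene Gja1 (log2 fold change 0.18 ± 0.05 (SE), adjusted p = 0.0453) rose too. Groups were separate in all 7. The calls of Aldh1l1 and Ndrg2 held in each fit with 1 library left out. That of Slc4a4 was lost without 24 h A278 or 12 h A259 or A260 (between -0.25 and -0.17) and that of Atp1b2 without 24 h A276 or A278 or 12 h A258, A259 or A261 (between -0.20 and -0.14). Kcnj10 lost its call without 12 h A261 (between 0.22 and 0.29). Fgfr3 lost it without 24 h A274, A275, A276 or A278 or 12 h A258, A260 or A261 (between 0.27 and 0.40), and Gja1 without 24 h A274 or A278 or 12 h A258, A260 or A261 (between 0.13 and 0.21). None of the 3 rises was called without 12 h A261, and 2 members fell without 12 h A259 or 24 h A278.

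Vwf, the clotting glycoprotein of endothelial cells, had 48.4, 54.4, 46.0 and 51.1 CPM at 24 h, against 21.2, 31.6, 29.3 and 24.5 CPM at 12 h (log2 fold change 0.90 ± 0.10 (SE), adjusted p = 0.000104). It was the sole called member of 19 tested endothelial activation genes, of which 14 had a negative fold change (median -0.19). Without 24 h A276, 3 members of that list fell and the median was -0.43, and by limma-voom 2 fell. Without 24 h A275, 1 fell. The median was -0.07 without 24 h A274, -0.10 without 24 h A275 and -0.11 without 24 h A278. Of 23 genes of the blood-brain barrier and endothelial identity 3 rose, against 0.885% of all genes tested, and none fell. In this list 19 had a positive fold change (median 0.15). Cldn5, the main tight junction claudin of brain vessels, had 41.2, 30.1, 36.6 and 40.2 CPM at 24 h, against 21.8, 28.9, 26.3 and 24.6 CPM at 12 h (log2 fold change 0.54 ± 0.10 (SE), adjusted p = 0.00627). Tek, the angiopoietin receptor, had 10.6, 9.58, 5.86 and 10.2 CPM at 24 h, against 3.84, 5.66, 5.67 and 5.71 CPM at 12 h (log2 fold change 0.78 ± 0.16 (SE), adjusted p = 0.00919). Tie1, its co-receptor, rose as well (log2 fold change 0.56 ± 0.12 (SE), adjusted p = 0.0143). Groups were separate in all 3, with 24 h A276 the lowest 24 h library of Tek and Tie1. Ptprb, an endothelial phosphatase that restrains Tek, had 29.3, 25, 21.0 and 25.7 CPM at 24 h, against 11.1, 15, 15 and 9.88 CPM at 12 h (log2 fold change 0.98 ± 0.12 (SE), adjusted p = 0.000384). Slco1a4, a transporter of the barrier, did not pass (log2 fold change 1.15 ± 0.27 (SE), adjusted p = 0.0553), and 24 h A276, at 11.6 CPM, lay within the 12 h range of 10.9 to 12.1 CPM while the other 24 h libraries were at 27.2 to 32.7 CPM. The call of Tie1 was lost without 24 h A278 or 12 h A258 (values between 0.50 and 0.65). Without 24 h A276, 6 genes of the barrier list were called. Cldn5 averaged 33.6 ± 3.75 CPM after saline, 25.4 ± 1.73 CPM at 6 h, 25.4 ± 3.02 CPM at 12 h and 37.0 ± 5.04 CPM at 24 h (SD, n = 3 for saline and 4 for each LPS time). Ptprb averaged 23.4 ± 0.985 CPM after saline, 10.9 ± 1.20 CPM at 6 h, 12.7 ± 2.64 CPM at 12 h and 25.2 ± 3.41 CPM at 24 h. Abca9, an ABC transporter, followed the same direction, with 9.11, 8.14, 4.58 and 7.19 CPM at 24 h, against 3.43, 3.97, 3.68 and 4.0 CPM at 12 h (log2 fold change 0.93 ± 0.16 (SE), adjusted p = 0.00226).

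Aldh1a2, a retinoic acid-synthesising enzyme of meningeal fibroblasts, had 2.42, 3.91, 4.83 and 3.55 CPM at 24 h, against 8.57, 12.5, 7.90 and 10.04 CPM at 12 h (log2 fold change -1.39 ± 0.21 (SE), adjusted p = 0.00181), with no overlap. It was the sole called member of 13 meningeal fibroblast markers, all with a negative fold change (median -0.43). The median was -0.17 without 12 h A259, and 2 members fell without 12 h A258. These markers summed to 134 to 152 CPM at 24 h and 135 to 235 CPM at 12 h, highest in A261. Ptgds, the prostaglandin D synthase of meninges, choroid plexus and oligodendrocytes, had 244, 264, 282 and 260.5 CPM at 24 h, against 391.8, 574, 391 and 424 CPM at 12 h (log2 fold change -0.76 ± 0.14 (SE), adjusted p = 0.0161). Hpgd, which degrades prostaglandins, rose (log2 fold change 0.82 ± 0.14 (SE), adjusted p = 0.0015) and had 5.52, 5.58, 3.96 and 5.92 CPM at 24 h, against 2.96, 3.03, 2.62 and 3.22 CPM at 12 h. These were the called members of 12 prostaglandin and leukotriene genes. The call of Ptgds was lost without 24 h A274 or A278 (values between -0.82 and -0.61). Without 12 h A261, Aldh1a2 and Hpgd were still called. Whether a different amount of meninges or choroid plexus in the dissected tissue bears on Aldh1a2 and Ptgds was not tested. Of 8 mural cell and 5 ependymal markers none was called. Of 5 red blood cell genes, Hba-a2, a near-identical copy of Hba-a1, was called and was lower (log2 fold change -0.44 ± 0.10 (SE), adjusted p = 0.0281). The call was lost without 24 h A274, A276 or A278 or 12 h A258, A259 or A261 (values between -0.51 and -0.37), and 2 of the 5 fell without 12 h A260 or 24 h A275. The sum of these 5 genes was 356 to 438 CPM at 24 h and 426 to 588 CPM at 12 h.

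Of 19 heat shock and endoplasmic reticulum chaperone genes 3 fell, against 1.26% of all genes tested, and none rose. In this list 16 had a negative fold change (median -0.29). The median was -0.18 without 12 h A261 or without 24 h A276. Calr, a calcium-binding chaperone, had 298, 314, 222.97 and 289 CPM at 24 h, against 447, 371, 386 and 471 CPM at 12 h (log2 fold change -0.58 ± 0.11 (SE), adjusted p = 0.0126). Hsp90b1, the chaperone of the endoplasmic reticulum that folds Toll-like receptors, had 157, 166, 130.4 and 157 CPM at 24 h, against 225, 190.0, 193 and 235 CPM at 12 h (log2 fold change -0.47 ± 0.07 (SE), adjusted p = 0.00219). Both had separated groups. Xbp1, the transcription factor of the unfolded protein response, fell (log2 fold change -0.36 ± 0.08 (SE), adjusted p = 0.0308), but its call was lost without 24 h A274, A276 or A278 or 12 h A258 or A261 (values between -0.43 and -0.29). Of 20 sterol genes, the synthesis enzymes Nsdhl (log2 fold change -0.31 ± 0.08 (SE), adjusted p = 0.0266), Hmgcs1 (log2 fold change -0.26 ± 0.06 (SE), adjusted p = 0.0253) and Fdft1 (log2 fold change -0.23 ± 0.06 (SE), adjusted p = 0.0453) fell with separated groups. None of the sterol genes was called without 12 h A261 or without 24 h A278, and 1 was without 12 h A258 or 12 h A260.

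**Figure D4:**
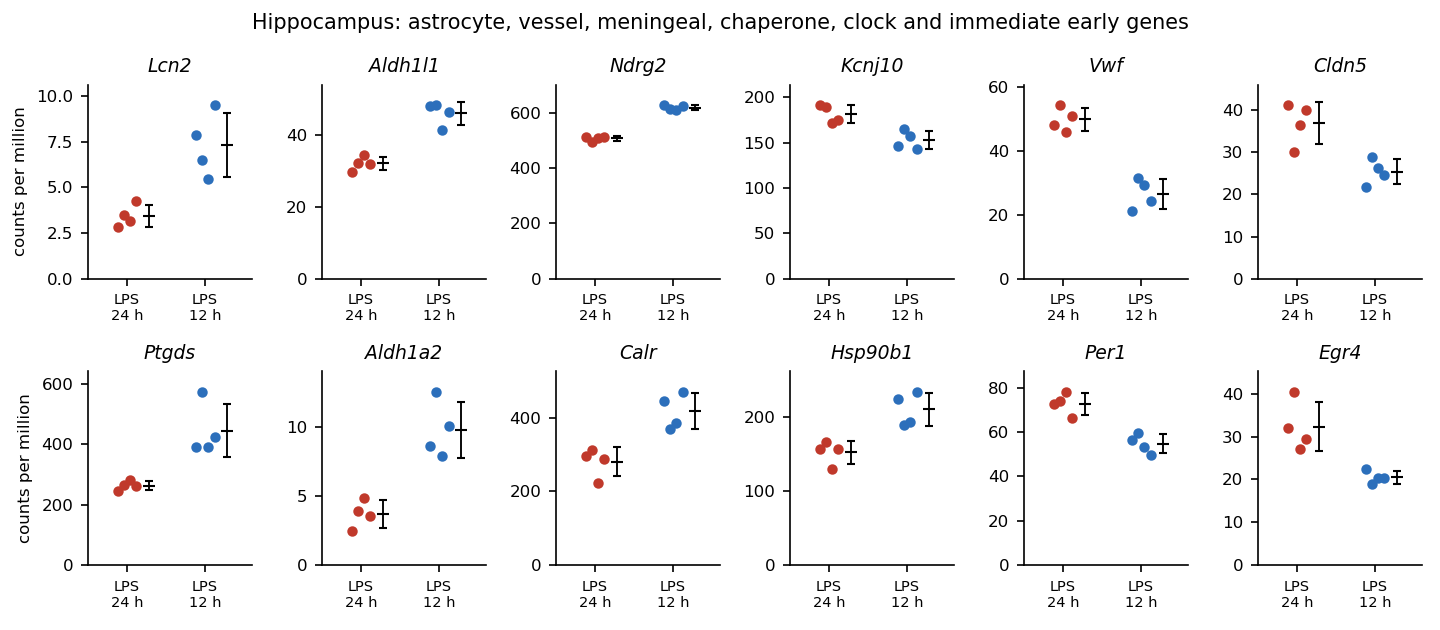
CPM (y axes, starting at 0) in the 4 LPS 24 h libraries (left) and the 4 LPS 12 h libraries (right), each point a library, with the mean and SD beside them. Lcn2, Aldh1l1, Ndrg2, Ptgds, Aldh1a2, Calr and Hsp90b1 are lower at 24 h, and Kcnj10, Vwf, Cldn5, Per1 and Egr4 are higher, with no overlap between the groups in any panel.

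Few neuronal genes passed. None of 21 synaptic vesicle and postsynaptic genes (median -0.02), 23 glutamate and GABA receptor genes (median -0.01), 12 tested cholinergic genes (median 0.07, or 0.01 without 24 h A274), or 27 oxidative phosphorylation genes of nuclear or mitochondrial DNA passed the test in either direction. Ache, which encodes the acetylcholinesterase that DFP inhibits, had 51.2, 50.7, 57.0 and 51.2 CPM at 24 h, against 42.1, 50.1, 51.7 and 44.5 CPM at 12 h (log2 fold change 0.15 ± 0.06 (SE), adjusted p = 0.201). Of 18 immediate early genes (median 0.35) 3 rose, against 0.885% of all genes tested, and none fell. Egr4 had 32.1, 40.5, 27.2 and 29.5 CPM at 24 h, against 22.5, 18.9, 20.2 and 20.2 CPM at 12 h (log2 fold change 0.66 ± 0.10 (SE), adjusted p = 0.0013). Junb had 74.3, 91.0, 70.3 and 73.6 CPM at 24 h, against 68.1, 52.2, 56.8 and 54.2 CPM at 12 h (log2 fold change 0.42 ± 0.08 (SE), adjusted p = 0.00867). Egr1, a readout of recent neuronal activity, had 122, 138, 82.7 and 93.4 CPM at 24 h, against 82.2, 60.6, 57.1 and 60.9 CPM at 12 h (log2 fold change 0.75 ± 0.17 (SE), adjusted p = 0.0449). Its call was lost without 24 h A274, A275 or A278 or 12 h A259, A260 or A261 (values between 0.61 and 0.88). All 3 had separated groups. Fos did not pass (log2 fold change 0.95 ± 0.24 (SE), adjusted p = 0.067), with 12.1, 16.9, 11.6 and 11.8 CPM at 24 h, against 9.19, 5.91, 6.54 and 5.71 CPM at 12 h. The list had 6 called members without 12 h A258 or without 24 h A276, and 2 without each of the other 6 libraries. Among 15 neuropeptide genes Cartpt alone was called, lower at 24 h (log2 fold change -0.88 ± 0.21 (SE), adjusted p = 0.0278), and its call was lost without 24 h A276 or A278 or 12 h A261 (values between -1.03 and -0.60). No oligodendrocyte precursor gene of 12 passed. Of 13 myelin and oligodendrocyte genes 1 rose, none fell, and 12 had a positive fold change (median 0.17). None of the 13 was called without 12 h A258, A259 or A261 or 24 h A274 or A278, and 2 were without 24 h A275. Markers of CA3 and of neighbouring regions gave 1 called gene in each list of 5, all lower at 24 h: Coch among CA3 markers (log2 fold change -0.89 ± 0.18 (SE), adjusted p = 0.0108), Rgs16 among thalamic markers (log2 fold change -0.50 ± 0.13 (SE), adjusted p = 0.0401) and Lamp5 among neocortical layer markers (log2 fold change -0.31 ± 0.06 (SE), adjusted p = 0.0047). Without 12 h A259, 2 CA3 markers fell. The 5 thalamic markers summed to 40.9 to 46.5 CPM at 24 h and 43.0 to 47.6 CPM at 12 h. The 5 neocortical ones summed to 109.9 to 125.5 CPM at 24 h and 115 to 124 CPM at 12 h, so the sums overlapped. The call of Rgs16 was lost without 24 h A274, A275, A276 or A278 or 12 h A258 or A261 (values between -0.60 and -0.34).

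Clock genes were compared because collection 12 h apart may fall at different hours of the day. Of 20 clock genes 4 rose, against 0.885% of all genes tested, none fell, and the median was 0.10. Per1, a repressor of the clock that glucocorticoids also induce, had 72.6, 74.1, 78.2 and 66.3 CPM at 24 h, against 56.5, 59.8, 53.1 and 49.6 CPM at 12 h (log2 fold change 0.41 ± 0.07 (SE), adjusted p = 0.00181). Ciart, another repressor, had 7.07, 7.81, 11.8 and 8.51 CPM at 24 h, against 6.96, 5.16, 6.42 and 5.71 CPM at 12 h (log2 fold change 0.54 ± 0.13 (SE), adjusted p = 0.0229). Cry1 (log2 fold change 0.38 ± 0.09 (SE), adjusted p = 0.0252) and Cry2 (log2 fold change 0.18 ± 0.04 (SE), adjusted p = 0.0306) rose by less, and the groups of Cry1 overlapped. The E-box CACGTG is the motif bound by CLOCK and BMAL1. It was present in the RefSeq promoter windows of Ciart, Cry1 and Per1 (3 of the 4, 75%). Among all tested genes with a window the share was 11.2%, among those that rose 15.3% and among those that fell 14.4%. The share among the clock genes that were not called was not measured. Whether the motif went with the rise was therefore not tested. Calls were lost for Ciart without 24 h A276 or A278 or 12 h A259 or A261 (between 0.37 and 0.63), Cry1 without 24 h A276 or A278 or 12 h A258, A259 or A260 (between 0.33 and 0.49) and Cry2 without 24 h A275, A276 or A278 or 12 h A261 (between 0.15 and 0.20), and 1 member was called without 24 h A276 or without 24 h A278. Without 12 h A259 or 12 h A261, 2 were called. Dbp, an output gene of the clock with a strong daily rhythm, had 37.8, 39.6, 46.2 and 40.9 CPM at 24 h, against 39.6, 38.9, 37.4 and 37.4 CPM at 12 h and did not pass (log2 fold change 0.11 ± 0.07 (SE), adjusted p = 0.529). The labels used here give no hour of injection or collection, so the time after LPS and the hour of the day cannot be told apart. Of 20 glucocorticoid-responsive genes 1 was called, and another rose without 24 h A276. The called one was Sult1a1, a sulfotransferase, with 2.86, 2.19, 3.59 and 2.32 CPM at 24 h, against 7.22, 6.46, 6.81 and 7.84 CPM at 12 h (log2 fold change -1.36 ± 0.19 (SE), adjusted p = 0.000927), and no 24 h library reached the 12 h range. Fkbp5, a chaperone of the glucocorticoid receptor, had 77.9, 72.6, 76.7 and 69.9 CPM at 24 h, against 82.0, 68.1, 80.0 and 71.6 CPM at 12 h (log2 fold change -0.02 ± 0.09 (SE), adjusted p = 0.944). Sult1a1 averaged 25.2 ± 6.94 CPM after saline, 17.7 ± 0.631 CPM at 6 h, 7.08 ± 0.594 CPM at 12 h and 2.74 ± 0.637 CPM at 24 h (SD, n = 3 for saline and 4 for each LPS time).

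The earlier response, 6 h after LPS against saline, was measured in 7 other hippocampal libraries, so it shares no library with the comparison of 24 h and 12 h, though all 15 were fitted together. At 6 h 512 genes were higher than after saline (2.96% of genes tested) and 372 lower (2.15%). Of the 217 genes that were lower at 24 h than at 12 h, 70 (32.3%, and 13.7% of the 512) had been higher at 6 h and 1, Sult1a1, had been lower. All 14 tested GTPase genes were among those higher at 6 h. Of the 153 genes that were higher at 24 h than at 12 h, 18 (11.8%, and 4.84% of the 372) had been lower at 6 h. Another 6 (3.92%, and 1.17% of the 512) had been higher at 6 h: Adgrl4, Bin2, C1qa, C1qb, Fcgr3 and Ifi30. Of these, C1qa and C1qb are on the complement list and Fcgr3 is on that of activated microglia. No test of these shares was made.

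Frontal cortex was collected at 24 h and 12 h from the same 8 mice and gave a parallel comparison. None of 17111 genes passed the test between 24 h and 12 h there, by edgeR, and 310 had an unadjusted p under 0.05. The cortical spread was larger, with a biological coefficient of variation of 0.103 against 0.069 in the hippocampus. The 153 genes that rose in the hippocampus had a median log2 fold change of -0.01 in the cortex, where 151 were tested and 71 were above 0, against 0.45 in the hippocampus. The 217 that fell had a cortical median of 0.04, with 149 above 0, against -0.43 in the hippocampus. The genes were chosen by their hippocampal change, so these medians are a description. In the cortex Gbp4 had a log2 fold change of 0.40 ± 0.68 (SE), P2ry12 of 0.01 ± 0.49, Csf1r of 0.10 ± 0.13, Mki67 of -0.27 ± 0.36 and Calr of 0.16 ± 0.15. The difference between tissues, hippocampus minus cortex, was -2.59 ± 0.79 for Gbp4 (adjusted p = 0.424) and 1.56 ± 0.57 for P2ry12 (adjusted p = 0.442). It was 0.42 ± 0.16 for Csf1r (adjusted p = 0.443), 1.86 ± 0.50 for Mki67 (adjusted p = 0.339) and -0.73 ± 0.19 for Calr (adjusted p = 0.339). Over 17650 genes edgeR called no difference in either direction. The smallest adjusted p was 0.130, 1590 genes had an unadjusted p under 0.05, and DESeq2 called 2 genes. One of these was Isyna1, which encodes the enzyme that makes inositol phosphate from glucose phosphate. It had 22.4, 20.9, 17.8 and 21.5 CPM at 24 h, against 27.6, 31.1, 27.2 and 29.4 CPM at 12 h in the hippocampus (log2 fold change -0.48 ± 0.08 (SE), adjusted p = 0.000849) and a cortical log2 fold change of 0.17 ± 0.09 (SE). A tissue difference in the course from 12 h to 24 h was therefore not shown for the GTPase, microglial or cell division genes, although the call was made in the hippocampus alone.

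**Figure D5:**
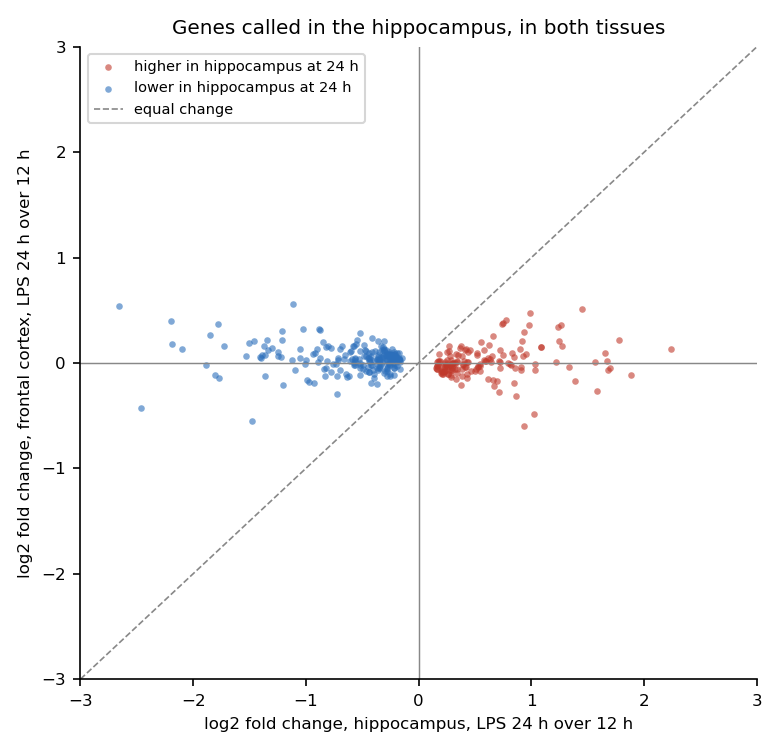
Log2 fold change of LPS 24 h over LPS 12 h in the hippocampus (x axis) and in the frontal cortex (y axis) for the 368 genes called in the hippocampus and tested in both tissues, each point a gene. Genes that rose and fell in the hippocampus lie along the horizontal axis, with cortical medians of -0.01 and 0.04.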

How the data were processed

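Poly(A)-selected, stranded, paired-end libraries were made from hippocampus and frontal cortex, per the labels' protocols. The values used are the raw counts per gene that the authors deposited for all 30 libraries. The submitters' processing notes name Trim Galore 0.4.1 for trimming and also FastQC, STAR 2.6.0a, DESeq2 and GRCm38 (mm10). They name no read counter, strand setting or annotation release (not given in the sources used here), so overlapping and near-identical genes are uncertain. The reference gene table gave symbols for 48144 of 48820 genes (98.6%, and the gene version matched for 83.4%). Genes with no symbol took at most 0.261% of counts in any library, and 15948 genes had no counts. A hippocampal saline library that the submitters excluded was not analysed here.

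One edgeR model (version 4.0.16, R 4.3.3) held the 15 hippocampal libraries, with genes kept by filterByExpr (minimum count 10, total 15), TMM scaling and a robust quasi-likelihood fit. Its contrast was LPS 24 h minus LPS 12 h, adjusted by Benjamini-Hochberg over all tested genes. The biological coefficient of variation was 0.069, and TMM factors were 0.971 to 1.018. The difference between tissues was fitted over all 30 libraries. A chi-square per gene between pairs of replicate libraries was 2.23 to 12.5, so no library was counted as a duplicate. In the hippocampal contrast the p-values measure the spread between libraries of separate mice. The fit over all 30 libraries had no term for the mouse, although most mice gave both tissues.

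No mouse gave hippocampus at both times, so nothing pairs the libraries compared. Of 16 mice, 14 gave both tissues. Deviations from the group mean correlated between the tissues of the 8 mice compared with r from 0.0155 to 0.335 (median 0.170, over 0.1 in 6 of 8), and the mouse enters only an alternative fit over both tissues.

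The 30 gene lists (550 members), 12 marker lists and the rules were chosen with earlier results of these data known. The rule for named genes took the 12 largest called changes in each direction whose average reached 1 on the log2 CPM scale and whose groups did not overlap, up to 4 members of each list, and 10 genes of LPS, stress and organophosphate biology (Ache, Ccl2, Cxcl10, Dbp, Fkbp5, Gfap, Il1b, Lcn2, P2ry12 and Tnf). Irf7, Oasl2, Gbp3, Gbp6, Gbp7, Gbp9, Irgm1, Irgm2, Igtp, Tmem119, Cx3cr1, Csf1r, C1qa, Mcm5, Gja1, Slc4a4, Atp1b2, Isyna1, Edn1 and further called members of the lists were chosen after their values were seen. Alternatives were other scalings and filters, limma-voom (limma 3.58.1), DESeq2 1.42.0, narrower and wider sets of libraries, the mouse as a random effect, and each library left out. The fit was tested on simulated counts for this comparison over 17289 genes. It recovered 83.6%, 95.5% and 100% of changes of 1.5-, 2- and 4-fold, with 15 false calls. The changed genes were drawn from those averaging at least 1 CPM over the compared libraries. Recovery below that level, where Tnf lies, was not measured. Some listed genes are not reported here by name. Promoter windows are RefSeq sequences on GRCm38.p6. They were also searched for a STAT, a glucocorticoid receptor, a D-box and a CHR motif, whose shares are not given here.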

Additional observations from a re-analysis of the deposited data

Results flagged for a closer look

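In each group of 4 libraries a value was singled out where its gap to the nearest other library was a larger share of the group's range than Dixon's 95% critical value, and chance does this in about 1 group in 20. Of 234 groups 19 were singled out, 5 of them through the 12 h library of A261.

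Choroid plexus genes were high in 12 h A261. The 10 markers summed to 2429.6 CPM there, and transthyretin (Ttr), the main secreted protein of the choroid plexus, took 0.226% of that library's counts. The same library was high for Irf1, at 12.7 CPM, and low for Ccl12, at 3.51 CPM, and for Mki67, at 0.367 CPM.

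Among the 24 h libraries, A278 stood above the other 3 for 3 interferon-induced genes, with 5.28 CPM of Iigp1, 7.42 CPM of Parp14 and 14.8 CPM of Oasl2. A275 was low for Ctss, at 59.2 CPM, and for C1qb, at 53.4 CPM, and high for Fos, at 16.9 CPM. A276 was high for Ggta1, at 6.27 CPM, and for Ache, at 57.0 CPM, and low for Tie1, at 5.78 CPM. A274 was low for P2ry13, at 8.09 CPM.

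Among the 12 h libraries, A259 was high for Gfap, at 601 CPM, and low for Lamp5, at 33.3 CPM. A258 was low for Tek, at 3.84 CPM, and high for Egr1, at 82.2 CPM.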

How the results depend on the processing

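The counts of 153 higher and 217 lower genes became 367 and 608 with no filter on low counts, 97 and 109 with the 8 compared libraries alone, and 17 and 15 with both tissues in 1 fit. With limma-voom 235 genes were higher. With the mouse as a block (a random effect over both tissues) 0 genes were called in either direction. With 1 library left out, 81 to 159 genes were higher and 111 to 206 lower. Other scalings, a stricter filter, DESeq2 and the lower genes of limma-voom stayed within 1.5 times. For the difference between tissues, where no gene was called, no filter gave 1 lower gene and DESeq2 2 (Isyna1 at -0.65 and ENSMUSG00000094614.1 at -0.87). With 1 of 16 libraries left out, 0 to 1 were higher and 0 to 1 lower, and the calls came without cortical 24 h A274 (Edn1 at 1.896 and Isyna1 at -0.71). Over 113 named genes and 1917 alternative values, 1507 kept their direction and side of the threshold, 368 lost a call (79 with both tissues in 1 fit and 93 with the block), and 34 gained one. The other 8 changed sign, all of them uncalled. Gbp3 ran from -0.181 to 0.116 over the fits with 1 library left out, and was negative without 12 h A260 (-0.0448) or 24 h A278. Gbp6 ran from -0.335 to 0.0675, positive without 12 h A259 (0.00438), 24 h A274 or 24 h A275 (0.0418). Fkbp5 ran from -0.0674 to 0.0209, positive without 12 h A258, 12 h A260 (0.00806) or 24 h A278 (0.00610). The cause of these shifts was not tested. Genes near 0.1 CPM, such as Tnf, rest on few counts.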
